A study of Mus musculus with 2 samples.

Results

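The 9 genes described here mark astrocytes, and they were followed in hippocampal RNA of wild-type mice, of AtrxdE2 mice and of AtrxdE2 mice given TMPyP4. They are Gfap, Aqp4, Glul, Gja1, Gjb6, Aldoc, Sox9, Clu and Fgfr3. They were chosen by symbol in the platform's probe annotation, which names 16446 genes. Each has 1 probe, so no second probe of any member could be compared. All 9 probes passed the filter of lying above the blank spots in all 4 channels of the 2 arrays with every scanner flag reading OK. So did 13596 named genes.

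AtrxdE2 mice carry the AtrxΔE2 allele of Atrx, which encodes an ATP-dependent chromatin remodeller. The treated group had the same genotype and received TMPyP4, a cationic porphyrin that binds G-quadruplex DNA, at 30 mg/kg by intraperitoneal injection, 2 times a week between postnatal days 30 and 90. Wild type and untreated AtrxdE2 have no treatment in the labels, and no vehicle is named. Each RNA was a pool from 5 mice, and the extraction protocol speaks of cells while the tissue is given as hippocampus. The labels give neither the sex of the mice nor their age at collection. Cy5 carried wild type and Cy3 the mutant pool on both arrays, 1 for AtrxdE2 and 1 for AtrxdE2+TMPyP4. With 1 array per group there is no replicate error and no p-value, dye and genotype cannot be told apart, and whether the same wild-type pool was used on both arrays is not stated.

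Astrocytes take up glutamate and potassium at synapses, store glycogen, supply neurons with lactate and cover blood vessels with end-feet. Glutamine synthetase, the product of Glul, turns the glutamate they take up into glutamine, which returns to neurons. Connexin 43 (Gja1) and connexin 30 (Gjb6) couple astrocytes into a network, and aquaporin-4 (Aqp4) carries water at their end-feet. GFAP, the filament protein for which astrocytes are usually stained, is also the usual sign of their reaction to injury.

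RefSeq promoters (GRCm38.p6) were found for 6 members, as 8 sequences, and the 250 bases before the start were read on the gene's strand. Shown are those of the 3 members that lay farthest from genes of like signal in the comparisons below: Glul at chr1:153899679-153899928 on the plus strand, Gjb6 at chr14:57133612-57133861 on the minus strand, and the second Fgfr3 start at chr5:33722056-33722305 on the plus strand. Capitals mark matches to the motifs listed after them.
Glul: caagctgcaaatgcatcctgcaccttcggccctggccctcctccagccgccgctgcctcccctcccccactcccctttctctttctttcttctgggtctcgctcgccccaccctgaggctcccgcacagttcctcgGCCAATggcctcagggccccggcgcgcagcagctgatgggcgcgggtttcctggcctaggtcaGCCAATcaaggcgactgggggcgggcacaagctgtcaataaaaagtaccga
Gjb6: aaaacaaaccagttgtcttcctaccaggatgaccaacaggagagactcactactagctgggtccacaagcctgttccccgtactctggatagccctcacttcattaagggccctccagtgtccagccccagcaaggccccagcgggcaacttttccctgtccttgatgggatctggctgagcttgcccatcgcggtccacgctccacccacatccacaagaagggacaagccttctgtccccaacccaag
Fgfr3: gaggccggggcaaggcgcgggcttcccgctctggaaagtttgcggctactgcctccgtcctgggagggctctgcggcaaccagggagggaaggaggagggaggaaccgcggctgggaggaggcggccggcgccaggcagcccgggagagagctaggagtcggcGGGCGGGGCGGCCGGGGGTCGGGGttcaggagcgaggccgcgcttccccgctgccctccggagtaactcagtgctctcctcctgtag
Because TMPyP4 binds G-quadruplexes, 4 runs of at least 3 G with 1 to 7 bases between them were searched on both strands. The second Fgfr3 start held such a run from base 87 to base 64 before the start. It was the only match among the 8 member promoters, and 16.7% of all 32851 promoters in the table held one. CCAAT, the box bound by NF-Y, occurred 2 times on the sense strand of the Glul promoter. There it overlaps 2 antisense matches to TTGGC, the short element bound by nuclear factor I. CCAAT was found in 2 of 8 member promoters and in 33.9% of all promoters, and TTGGC in 2 of 8 and in 41.5%. TTCNNNGAA, the core of STAT sites, matched only the second Aldoc start (7.02% of all promoters). The full palindromic nuclear factor I site (0.0365% of all), the SOX motif ACAAAG (16.5%) and the TATAAA box (12.4%) matched no member promoter. No motif matched the Gjb6 window.

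Before normalization, the members' wild-type signals on the AtrxdE2 array ran from 29.2 to 9244 units above the blank spots. Over all probes the AtrxdE2 channel had a median of 64.6 beside 42.2 for its wild type, and the AtrxdE2+TMPyP4 channel 79.0 beside 36.01, so the Cy3 channel was the brighter one on each array. A mutant signal above the wild-type one therefore says nothing before normalization. The members' summed share of the measured signal was 0.295% in AtrxdE2 (0.283% in its wild type) and 0.332% in AtrxdE2+TMPyP4 (0.289%). Most of that sum came from Aldoc, Clu and Gja1 (21468, 19017 and 6363 of 50060 units in AtrxdE2+TMPyP4). Of a wider list of 74 astrocyte genes, 66 were on the array and 63 passed the filter. In such bulk RNA, fewer astrocytes and less RNA per astrocyte cannot be told apart.

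**Figure D1:**
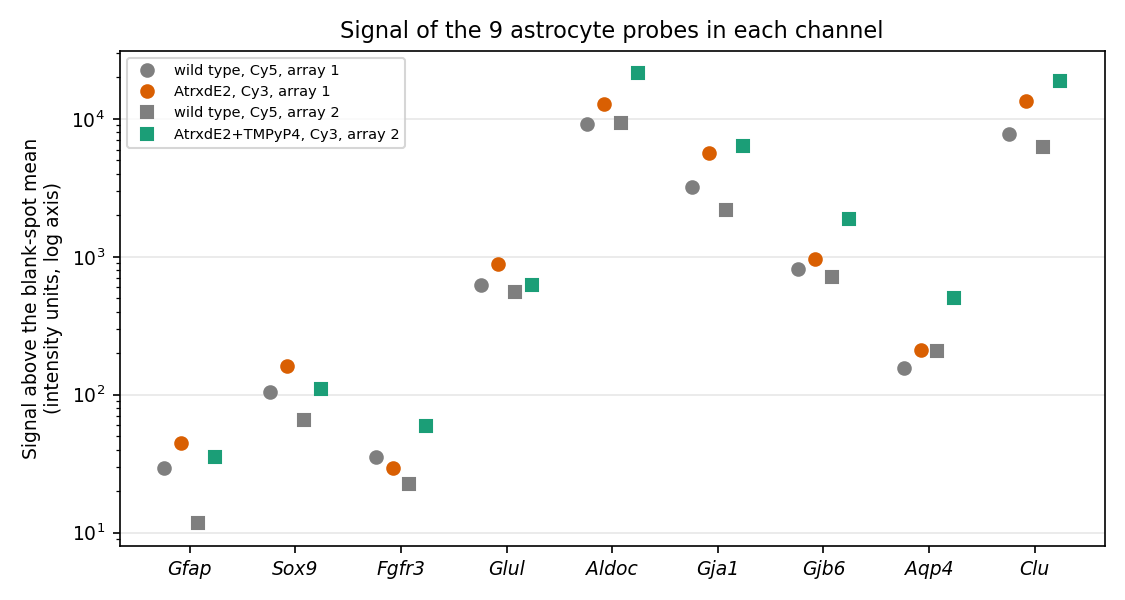
Signal above the blank-spot mean (log axis) of the 9 astrocyte probes, with wild type in grey, AtrxdE2 in orange and AtrxdE2+TMPyP4 in green, and circles and squares for the first and second array. The Cy3 signal exceeds the Cy5 signal of its array for every probe except Fgfr3 in AtrxdE2 (29.3 against 35.2).

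Ratios below are log2 of the mutant pool over wild type after background correction and loess normalization. Each is set beside the local spread, which is the SD of this ratio among the 500 genes closest to the member in mean signal. That SD mixes noise with real differences between genes and is not an error of the member. No member reached a 2-fold difference (a log2 ratio of at least 1 or at most -1) in AtrxdE2 over wild type (0 of 9, against 0.0294% of 13596 measured genes). The median over the members was -0.084 (SD 0.21 over genes, from -0.40 to 0.22), against -0.003 over all genes. Of the 9 members 4 were above 0, against 49.3% of all genes. By the authors' deposited table, again 0 of 9 were past 2-fold, against 1.56% of all genes. With median centring, which leaves out the fit to signal, the members' median was 0.053. By the authors' deposited table, which subtracts a constant and uses no offset, it was -0.16.

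In AtrxdE2+TMPyP4 over wild type, again 0 of 9 members reached 2-fold (0.191% of all genes did). By the authors' deposited table of log2 ratios, Glul did, as 1 of 9, against 2.03% of all genes. The members' median was 0.12 (SD 0.39, from -0.93 to 0.34), against 0.0095 over all genes, and 6 of 9 were above 0, against 52.8% of all genes. Of the members 5 had the same sign on both arrays and 4 had opposite signs, as did 46.6% of all genes. The members' share is thus near that of all genes. With median centring the members' median was 0.38.

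**Figure D2:**
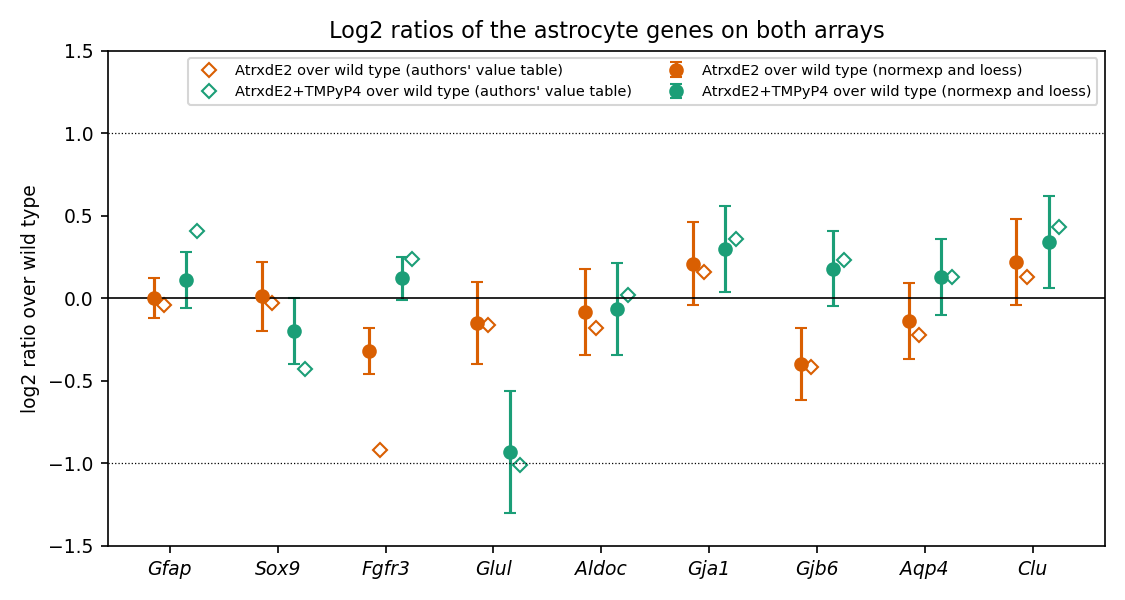
Log2 ratio over wild type of each astrocyte gene on the AtrxdE2 array (orange) and the AtrxdE2+TMPyP4 array (green). Filled points are the normalized ratios with bars of 1 SD of the 500 genes closest in signal, open diamonds are the authors' deposited table, and dotted lines mark 2-fold. Glul in AtrxdE2+TMPyP4 (-0.93) is the lowest filled point, and the open diamond of Fgfr3 in AtrxdE2 (-0.92) lies far below its filled point (-0.32).

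Among the genes of astrocyte metabolism, Glul had the largest difference of all members. Its signal was 886 in AtrxdE2 beside 630 in its wild type, and 621 in AtrxdE2+TMPyP4 beside 556. Before normalization both wild-type signals and the treated pool lay close together, although the Cy3 channel was generally much brighter. The untreated mutant stood higher, but it lay in the brighter channel of its array. The normalized log2 ratio over wild type was -0.15 in AtrxdE2 (local spread 0.25, percentile 31.4 among the 500 genes). It was -0.93 in AtrxdE2+TMPyP4 (local spread 0.37), below all 500 genes of like signal. By its mean signal the choroid plexus gene Ttr, at 6.59 on that array, is among these 500 and widens the spread. For Gjb6 the spread on that array was 0.23. The authors' deposited table gives -0.16 and -1.01.

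The value of Glul on the treated array held its sign under every setting tried, between -0.59 with median centring and -1.05 with plain subtraction of the blank level. Aldoc encodes aldolase C, the brain form of this enzyme of glycolysis. Its signals were 12808 in AtrxdE2 beside 9244 in its wild type, and 21468 in AtrxdE2+TMPyP4 beside 9382. The ratios of -0.084 and -0.064 lay within the local spreads of 0.26 and 0.28, at percentiles 42.4 and 46.6. The sign of the second turned in 5 of 6 settings, so Aldoc has no direction on the treated array.

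The glutamate and glutamine genes held members on both sides of 0. Of the 13 measured genes of that list, which includes Glul, none reached 2-fold on either array. By the authors' deposited table Glul did in AtrxdE2+TMPyP4, as 1 of 13, against 2.03% of all genes. Above 0 were 9 in AtrxdE2 and 6 in AtrxdE2+TMPyP4, with medians of 0.062 and -0.02 (0.23 and 0.30 with median centring). Slc1a2, the main glutamate transporter of astrocytes, was the highest in both, at 0.41 (local spread 0.21) and 0.58 (0.21), with signals of 160 in AtrxdE2 beside 68.3 in its wild type and 216 in AtrxdE2+TMPyP4 beside 53.8. Slc1a3, the other astrocyte glutamate transporter, had 0.01 and -0.24 (0.25). The neuronal glutamine carrier Slc38a1 was the lowest of the list in AtrxdE2, at -0.16. Slc38a5, a glutamine carrier, had 0.34 in AtrxdE2, and Slc38a2, another, 0.33 in AtrxdE2+TMPyP4.

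Of 17 genes of aldolases, glycogen and lactate, 10 were above 0 in AtrxdE2 and 4 in AtrxdE2+TMPyP4, with medians of 0.025 and -0.12 and no gene past 2-fold on either array. With median centring instead, the second median was 0.26, while by the authors' deposited table it was -0.12. Its sign thus turned with median centring but not in the authors' table. The lactate dehydrogenase gene Ldha had -0.75 (local spread 0.25) and the pyruvate kinase gene Pkm (Pkm2 on the array) -0.47 in AtrxdE2, where Pfkfb3, which sets the pace of glycolysis, had 0.24 and the lactate transporter gene Slc16a7 0.22. In AtrxdE2+TMPyP4 another lactate transporter gene, Slc16a1, had -0.41 (0.23) and the phosphofructokinase gene Pfkl -0.30, while Ldhb had 0.41 (0.28) and Pkm 0.31.

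Oligodendrocytes also express Glul, and their markers were low on both arrays. All 14 measured oligodendrocyte genes were below 0 in AtrxdE2 and 13 in AtrxdE2+TMPyP4, with medians of -0.49 and -0.34. With median centring these were -0.33 and -0.15, so their size depends on the normalization. The ends of the list were Mbp (-1.32) and Ugt8a (-0.12) in AtrxdE2, and Cnp (-0.80) and Mag (0.03) in AtrxdE2+TMPyP4. Their summed share of the signal was 0.177% in AtrxdE2 (0.261% in its wild type) and 0.191% in AtrxdE2+TMPyP4 (0.27%). Every one of these markers was above background in all channels. The part of these cells in the Glul value was not tested.

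Both astrocyte connexin genes were measured well above the blank spots, at 290 blank-spot SDs or more in every channel. Gjb6 had a signal of 959 in AtrxdE2 beside 819 in its wild type, and 1880 in AtrxdE2+TMPyP4 beside 711. Before normalization the treated pool stood highest, in the brighter channel of its array. The untreated mutant lay near wild type in spite of its brighter channel. The log2 ratio was -0.40 in AtrxdE2 (local spread 0.22, percentile 3.6) and 0.18 in AtrxdE2+TMPyP4 (0.23, percentile 77.6). The authors' deposited table gives -0.42 and 0.23. Both signs held under every setting.

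Gja1 had 5652 in AtrxdE2 beside 3229 in its wild type, and 6363 in AtrxdE2+TMPyP4 beside 2201. Its ratios of 0.21 and 0.30 were positive on both arrays, under every setting too, and compare with local spreads of 0.25 and 0.26. Thus the pair lay on opposite sides of 0 in AtrxdE2 and on the same side in the treated pool. Over 11 measured gap junction genes, Gja1 and Gjb6 included, 5 were above 0 on each array and the medians were -0.046 and -0.0052. Gjb1, which encodes connexin 32 of myelinating oligodendrocytes, was the lowest in AtrxdE2, at -0.59 (local spread 0.18), and Gjb2, which encodes connexin 26, was at 0.21 (0.16). In AtrxdE2+TMPyP4 the lowest were Gjc1 (Gja7 on the array) at -0.17 and Gja3 at -0.13, and the junction scaffold gene Tjp1 was highest at 0.33.

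Aqp4, whose water channel is gathered at end-feet, had a signal of 210 in AtrxdE2 beside 156 in its wild type, and 507 in AtrxdE2+TMPyP4 beside 206. Before normalization the treated pool stood well above the other 3 channels, but it lay in the brighter channel of its array. Wild type itself was higher for Aqp4 on the second array. Its ratios were -0.14 (local spread 0.23) and 0.13 (0.23), both inside the local spread. Of 11 measured genes of the water channel and end-foot complex, 3 were above 0 on each array, with medians of -0.037 and -0.057 (-0.043 and 0.021 with median centring). By the authors' deposited table the medians were -0.11 and -0.12. The dystrobrevin gene Dtna had 0.42 and the dystroglycan gene Dag1 0.30 in AtrxdE2, where the agrin gene Agrn was lowest at -0.18, and the laminin gene Lamc1 -0.33 and the astrocyte membrane protein gene Mlc1 -0.20 in AtrxdE2+TMPyP4. The highest gene of this list in the treated pool was Trpv4, an ion channel gene that the choroid plexus list also holds, at 0.69 (local spread 0.15). Kcnj10, the potassium channel of end-feet, did not pass the filter on signal and scanner flags, nor did Aqp1, Dmd and Lama2.

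Gfap, the astrocyte filament gene, had a signal of 44.7 in AtrxdE2 beside 29.2 in its wild type, and 35.3 in AtrxdE2+TMPyP4 beside 11.7. These lay 10.8 to 23.7 blank-spot SDs above the blanks, and all were below the offset of 50 that the background correction adds, which pulls ratios of dim probes toward 0. The ratios were 0.0011 (local spread 0.12) and 0.11 (0.17). The authors' deposited table, which uses no offset, gives -0.04 and 0.41. With median centring the second was -0.20, so no direction can be given for Gfap in the treated pool. No gene of 13 measured intermediate filament genes reached 2-fold, and the highest on the treated array were the neurofilament genes Nefh at 0.97 (local spread 0.23) and Nefm (Nef3 on the array) at 0.65 (0.21), which neurons express. By the authors' deposited table Nefh did on the treated array, at 1.17, as 1 of 13, against 2.03% of all genes. In AtrxdE2 the highest were Ina (0.49) and Nefh (0.29), and the lowest Synm (Dmn on the array, -0.11) and Nefl (-0.10). Synm (-0.14) and the nestin gene Nes (-0.09) were lowest on the treated array.

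Genes of reactive astrocytes other than Gfap were measured for 28 of 33 on the array. In AtrxdE2 23 were above 0 (49.3% of all genes were) with a median of 0.094, and none reached 2-fold. In AtrxdE2+TMPyP4 20 were above 0 with a median of 0.11, and 1, the ceruloplasmin gene Cp, was at least 2-fold higher (0.162% of all genes were), at 1.08 (local spread 0.22) after 0.96 (0.19) in AtrxdE2. With median centring the 2 medians were 0.091 and near 0 (5.335e-05). By the authors' deposited table they were 0.215 and 0.225, with 1 gene and 2 genes past 2-fold (1.56% and 2.03% of all genes). These were Cp on both arrays (1.53 and 1.79) and Timp1 in AtrxdE2+TMPyP4 (1.79). The Timp1 signal there was only 17.75 beside 2.276 in its wild type. Timp1, Ggta1, Clcf1, Tgm1, Ptx3 and C3 were below the offset of 50 in every channel, which limits the counts above 0. The complement inhibitor gene Serping1 came after Cp with 0.50 and 0.62 (0.20 for each). At the lower end, Fkbp5, a glucocorticoid target, had -0.44 and the cyclooxygenase gene Ptgs2 -0.16 in AtrxdE2, and B3gnt5 had -0.21 and Stat3, the transcription factor behind Gfap induction, -0.20 in AtrxdE2+TMPyP4. Cp and Serping1 are also expressed by meningeal and vascular cells. The 16 meningeal and fibroblast genes measured had medians of 0.37 and 0.67 with 15 above 0 on each array, and their summed share of the signal was 0.0388% in AtrxdE2 (0.0236% in its wild type) and 0.0379% in AtrxdE2+TMPyP4 (0.0203%). Aldh1a2 was their lowest gene on both arrays (-0.08 and -0.15), and Mgp (1.02) and Crabp2 (1.25) were the highest. None of them was at background. Their part in the values of the reactive list was not tested.

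Sox9, the transcription factor that starts gliogenesis and is kept in mature astrocytes, had a signal of 162 in AtrxdE2 beside 105 in its wild type, and 110 in AtrxdE2+TMPyP4 beside 65.8. Its ratio was 0.011 in AtrxdE2 (local spread 0.21) and -0.20 in the treated pool (0.20, percentile 10.2), and the second was negative under every setting, -0.43 in the authors' deposited table. Of 19 measured gliogenic transcription factors, 10 were above 0 in AtrxdE2 and 5 in AtrxdE2+TMPyP4, with medians of 0.011 and -0.11 and none past 2-fold. With median centring the second median was 0.11, and by the authors' deposited table -0.18. The Notch targets Hes5 (-0.28) and Hes1 (0.51) stood at opposite ends in the treated pool, where the oligodendrocyte factor Sox10 was lowest at -0.50 (0.23) and Nfix was second highest at 0.32. In AtrxdE2 Hes5 (-0.33) and Sox8 (-0.32) were lowest, and Olig2 (0.22) and Zbtb20 (0.21) highest. Nfia did not pass the filter on signal and scanner flags.

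Fgfr3 encodes the FGF receptor typical of astrocytes. Its signal was 29.3 in AtrxdE2 beside 35.2 in its wild type, and 59.6 in AtrxdE2+TMPyP4 beside 22.5. It was the only member with a mutant signal below wild type. The ratio was -0.32 in AtrxdE2 (local spread 0.14, percentile 1.8), the only value of a member in that comparison past 2 local spreads, and 0.12 in AtrxdE2+TMPyP4 (0.13). The authors' deposited table gives -0.92 and 0.24. At 8.88 blank-spot SDs the AtrxdE2 signal was the weakest of any member against its blanks. None of 17 measured genes of FGF receptors, ligands and feedback reached 2-fold. Fgfr1 had 0.29 and the feedback gene Spry2 0.27 in AtrxdE2. In AtrxdE2+TMPyP4 Fgfr2 had -0.22, Spry1 -0.16 and Fgf12 0.43, and Spred1, an inhibitor of signalling below these receptors, had -0.37 in AtrxdE2 and 0.51 in AtrxdE2+TMPyP4 (0.20 for each).

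Clu encodes clusterin, a secreted chaperone that is also called apolipoprotein J. It had 13396 in AtrxdE2 beside 7811 in its wild type, and 19017 in AtrxdE2+TMPyP4 beside 6279. It was the highest member on both arrays, at 0.22 (local spread 0.26, percentile 86.8) and 0.34 (0.28, percentile 92.8). Of 13 measured genes of apolipoproteins and their receptors, 8 were above 0 in AtrxdE2 and 4 in AtrxdE2+TMPyP4, with medians of 0.089 and -0.026 (0.29 and 0.24 with median centring). By the authors' deposited table the medians were 0.1 and -0.04. Apoe, the main astrocyte apolipoprotein, had -0.12 and 0.01. The cholesterol exporter gene Abca1 was lowest in AtrxdE2 (-0.20), and the receptor gene Vldlr highest (0.29). In AtrxdE2+TMPyP4 the receptor genes Lrp1 (-0.31) and Vldlr (-0.16) were lowest, and Sorl1 (0.29) came next to Clu. With the local background in place of the blank level, Clu went to -0.094 in AtrxdE2 and to 5.68 in AtrxdE2+TMPyP4, where its wild-type spot was dimmer than its surroundings (-190 units after subtraction).

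Clu, Sox9 and Aqp4 are also expressed by cells that line the ventricles, and choroid plexus markers were high in the treated pool. Of 12 measured choroid plexus genes, 8 were at least 2-fold higher in AtrxdE2+TMPyP4 (median 1.40), against 0.162% of all genes. In AtrxdE2 (median 0.025) 1 was, Ttr, against 0.0221% of all genes. The summed share of the choroid plexus genes in the signal was 0.0445% in AtrxdE2 (0.038% in its wild type) and 0.502% in AtrxdE2+TMPyP4 (0.0379%). Without Ttr it was 0.0415% (0.0374%) and 0.0985% (0.0346%). Aqp1, Cldn2 and F5 did not pass the filter on signal and scanner flags. With median centring the choroid plexus medians were -0.091 in AtrxdE2 and 1.35 in AtrxdE2+TMPyP4. The ends of that list were Kcne2 (-0.15) and Ttr (1.59), and Ace, at wild type, and Ttr (6.59). Ependymal genes had medians of -0.017 and 0.092 over 13 measured, with none past 2-fold, and the second turned to -0.076 with median centring (-0.11 in AtrxdE2). By the authors' deposited table the ependymal genes had medians of -0.06 and 0.15. Their lowest gene was Tmem212 on both arrays (-0.22 and -0.38), and their highest were Pltp (0.17) and Cfap126 (0.21). The part of these cells in the values of Clu, Sox9 and Aqp4 was not tested.

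In order of their ratios, the members formed a row without a clear step in AtrxdE2. They ran from Gjb6 and Fgfr3 at the lower end through Glul, Aqp4, Aldoc, Gfap and Sox9 to Gja1 and Clu, and every step between neighbours was smaller than the larger of their local spreads, although the ends of the row lay farther apart than that (-0.40 and 0.22). In AtrxdE2+TMPyP4 the order was Glul, Sox9, Aldoc, Gfap, Fgfr3, Aqp4, Gjb6, Gja1 and Clu. The step from Glul to Sox9 (0.733) exceeded their larger local spread (0.37, widened by Ttr), and no other step did. Among all measured genes, the pair of ratios of Glul was nearest to that of Hap1 (-0.15 and -0.97, Euclidean distance 0.0345), followed by the kinase gene Prkcd (-0.25 and -0.79) and 4930447C04Rik (0.03 and -0.86). The pair of Gjb6 was nearest to those of Ifit3 (-0.40 and 0.17), Tmub1 (-0.40 and 0.16) and Tsg101 (-0.37 and 0.19). Each likeness rests on 2 values.

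The wider astrocyte list had medians near 0 after loess. Of its 63 measured genes, 34 were above 0 in AtrxdE2 and 36 in AtrxdE2+TMPyP4, with medians of 0.0061 and 0.024, and none reached 2-fold on either array. With median centring the medians were 0.11 and 0.26. Slc6a11, the GABA transporter of astrocytes, was lowest in AtrxdE2 at -0.63 (local spread 0.23), and the metallothionein gene Mt2 followed at -0.50 (0.25). Mt2 was the lowest in AtrxdE2+TMPyP4 at -0.69 (0.26), and Mt3, the brain metallothionein, had -0.32 (0.22). At the upper end in AtrxdE2 were the peptide transporter gene Slc15a2 at 0.63 (0.23) and the proline dehydrogenase gene Prodh at 0.56 (0.22). Slc1a2 and Prodh led in AtrxdE2+TMPyP4, at 0.58 and 0.37. 

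Median centring also raised the medians of the neuronal, microglial and endothelial lists, so a higher median with that setting is not particular to astrocyte genes. The 12 neuronal genes had medians of 0.017 in AtrxdE2 and -0.022 in AtrxdE2+TMPyP4 after loess, and of 0.21 and 0.41 with median centring. For 13 microglial genes they were -0.054 and -0.11 after loess, and 0.097 and 0.21 with median centring. For 11 endothelial genes they were 0.073 and 0.014, and 0.16 and 0.11. The 11 genes of oligodendrocyte precursors had 0.012 and -0.11, and 0.023 and -0.23. By the authors' deposited table the neuronal medians were 0 and 0.005, and the microglial ones -0.08 and -0.13. The endothelial ones were 0.08 and 0.02 there, and those of precursors 0 and -0.3. In AtrxdE2 the ends of these lists were Snap25 (-0.67) and Eno2 (0.43) for neurons, P2ry12 (-0.70) and Trem2 (0.15) for microglia, Vwf (-0.07) and Flt1 (0.54) for endothelium, and Lhfpl3 (-0.15) and Olig2 (0.22) for precursors. In AtrxdE2+TMPyP4 they were Meg3 (-1.18) and Nefm (0.65), Tyrobp (-0.26) and Siglech (0.16), Cldn5 (-0.28) and Flt1 (0.13), and Bcas1 (-0.56) and Tnr (0.11). The part of these cells in the members' values was not tested.

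**Figure D3:**
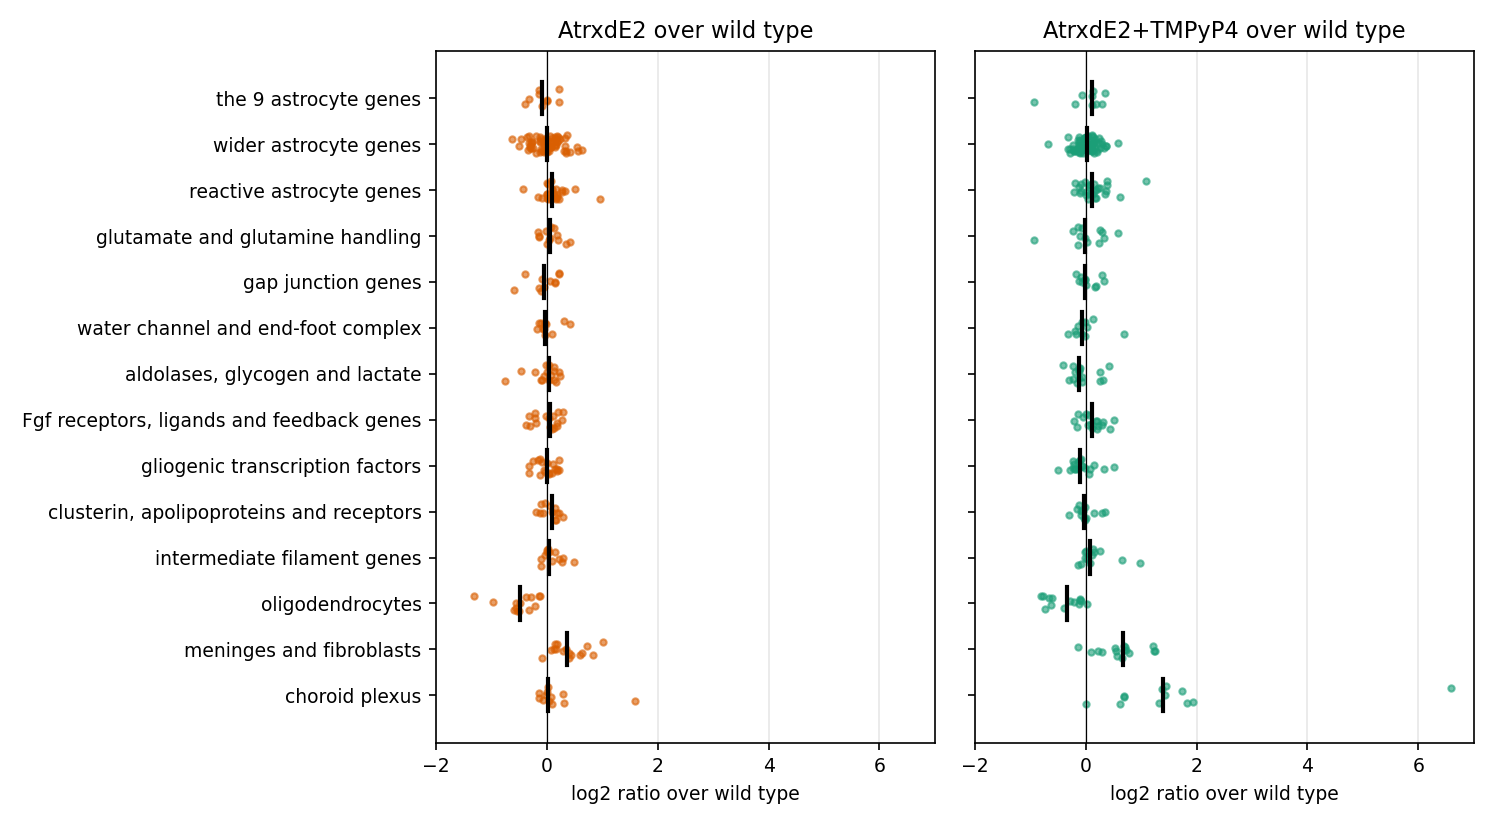
Log2 ratio over wild type of each measured gene of 14 gene lists in AtrxdE2 (left, orange) and AtrxdE2+TMPyP4 (right, green). Each point is a gene and black bars are list medians. The wider astrocyte list is centred near 0 on both arrays (0.0061 and 0.024, or 0.11 and 0.26 with median centring), while oligodendrocyte genes lie below 0 (-0.49 and -0.34, or -0.33 and -0.15 with median centring) and choroid plexus genes spread upward in the treated pool (median 1.40).

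The difference between treated and untreated AtrxdE2 mice was estimated by subtracting 1 ratio from the other, and beside it the Cy3 channels were set against each other directly. Again 0 of 9 members reached 2-fold (0.302% of all genes did). By the authors' deposited table, Fgfr3 did with 1.16, as 1 of 9, against 4.56% of all genes. The members' median was 0.11 (SD 0.40), against 0.015 over all genes, and 7 of 9 were above 0, against 52.8%. With the Cy3 channels set directly against each other, the members' median was 0.00053.

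Glul was the lowest member, at -0.79 (local spread 0.38, again widened by Ttr, percentile 0.4), and -0.77 in the direct comparison. Wild type differed by 0.044 between the arrays for Glul (SD 0.34 for genes of like signal), and both routes, which share the same Cy3 values, gave nearly the same size. Gjb6 was the highest at 0.58 (0.30, percentile 96.4), 0.59 in the direct comparison, with a wild-type difference of 0.038. Fgfr3 had 0.43 (0.19, percentile 97.4), 0.30 directly and -0.14 in wild type. These 3 had the values farthest from 0 against their local spread.

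Among the other members, Aqp4, Sox9, Aldoc and Clu also had 1 sign by both routes, and Gja1 and Gfap did not. Aqp4 had 0.27 (0.31) as the difference of ratios and 0.77 directly, and its wild-type signal was 0.46 higher on the second array (SD 0.32). Sox9 had -0.21 (0.28) and -0.56, with wild type at -0.29 (0.29), and was negative in every setting tried. For Gja1 the values were 0.087 and -0.23, and for Gfap 0.11 and -0.19, so the direction of both depended on the route, and their wild-type channels differed by -0.31 and -0.26. For Clu (0.12 and 0.00053) and Aldoc (0.02 and 0.23) both values were smaller than 0.31, the local spread of the difference of ratios. No local spread was computed for the direct comparison. Over all members the wild-type channels differed between -0.31 and 0.46, against an SD of 0.27 over 13596 genes.

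**Figure D4:**
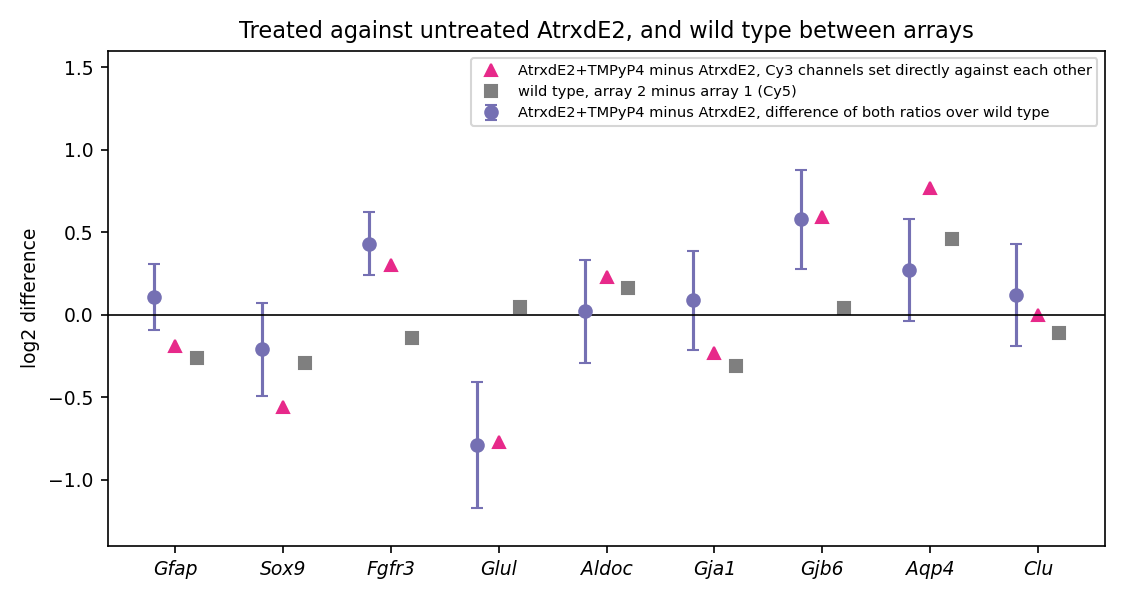
Log2 difference between AtrxdE2+TMPyP4 and AtrxdE2 for each astrocyte gene, from the 2 ratios over wild type (purple, bars of 1 SD of the 500 genes closest in signal) and between the Cy3 channels directly (pink triangles). Grey squares show wild type on the second array minus the first. Glul is low (-0.79 and -0.77) and Gjb6 high (0.58 and 0.59) by both routes with wild type near 0, whereas the routes differ for Aqp4 (0.27 and 0.77).

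Among the wider lists, the same difference gave a median of 0.039 over the 63 astrocyte genes, with 33 above 0 and none past 2-fold. Slc6a11 was highest at 0.54 (local spread 0.31), followed by the membrane receptor gene Paqr8 at 0.46 (0.19). By the authors' deposited table Paqr8 was past 2-fold, at 1.19, as 1 of 63, against 4.56% of all genes. Slc15a2 had -0.50 (0.28) and the bicarbonate transporter gene Slc4a4 -0.48 (0.29). In the glutamate list Glul was lowest and Glud1, the glutamate dehydrogenase gene, followed at -0.35, with Slc38a2 at 0.48 (0.23) and Slc1a1 at 0.23 at the upper end. In the gap junction list Gjb1 had 0.49 (0.23) after Gjb6, and Gja4 (-0.15) and Gjc1 (-0.09) were lowest. The reactive list had 14 of 28 above 0 and a median of 0.013 (-0.12 with median centring, 0.1 by the authors' deposited table). Its ends were Stat3 at -0.39 (0.30) and Iigp1 at -0.36, and Fkbp5 at 0.82 (0.28) and Srgn (Prg1 on the array) at 0.33. Among end-foot genes Trpv4 had 0.70, Dtna -0.49 and Dag1 -0.47. Among genes of glycolysis and lactate Pkm had 0.78 and Ldha 0.68, and Pfkl had -0.46 and Slc16a7 -0.35. In the FGF list Spred1 had 0.88 and Fgf14 0.50, and Fgfr1 -0.29 and Spry1 -0.19. Of the gliogenic factors Hes1 had 0.47 and Sox8 0.25, and Stat3 and Sox10 (-0.36) were lowest. Of the apolipoprotein list Abca1 had 0.15 and Apoe 0.13, and Lrp1 and Vldlr -0.45 each. Of the filament genes Nefh had 0.68 and Nefm 0.65, and Ina -0.47 and Nes -0.23.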

How the data were processed

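Hippocampal RNA was measured on 2 two-channel arrays, 1 per mutant group. Per the file headers, the scanner tables give each spot's intensity and its local background in both channels, combined over scanner gains. The authors' deposited table gives log2 ratios that the labels call normalized, mutant over wild type. They equal the log2 ratio of Cy3 over Cy5 above the blank level minus a constant (r = 0.99997), which sets the direction. The scanning software is not given in the sources used here.

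With limma 3.58.1 (R 4.3.3), normexp was fitted with the trimmed mean of 2736 blank spots as background and an offset of 50, then loess within each array, with control spots at weight 0. A probe was kept when it lay 2 SD above the blanks in all 4 channels and every scanner flag of its spots read OK on both arrays. Old symbols were updated through RefSeq (GRCm38.p6), and probes of one gene were averaged. The script was tested for recovery of the sign of simulated ratios of 2-fold or more, with the noise made smaller. That test does not bear on the members' ratios, which were smaller than 2-fold. No p-value was computed. "Past 2-fold" means a log2 ratio of at least 1 or at most -1.

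The members and lists were chosen with earlier results of these data known. All members were named, and of each list the 2 highest and 2 lowest genes (1 each for other cell types, in the comparisons over wild type only). For the member with the largest ratio over wild type on each array, the 3 genes nearest in both ratios were named. Genes that failed the filter were named for their role after this was seen. Alternatives were plain subtraction, local background, offset 0, median centring at offset 50, no filter, the authors' table and the Cy3 channels alone. A planned comparison of the connexin proteins was not run.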

Additional observations from a re-analysis of the deposited data

Results flagged for a closer look

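In 4 of the 9 astrocyte genes the single AtrxdE2 value and the single AtrxdE2+TMPyP4 value lay on opposite sides of wild type, as they did in 46.6% of all 13596 measured genes. The members' share is near that of all genes and is no result about them. The log2 ratios were -0.40 and 0.18 for Gjb6, -0.32 and 0.12 for Fgfr3, -0.14 and 0.13 for Aqp4, and 0.011 and -0.20 for Sox9 (AtrxdE2 first). With 1 array per group the difference between them was not tested. For Gjb6 both signs held under every setting tried. The sign on the treated array turned for Fgfr3 with the local background (-0.033) and with median centring (-0.088), and for Aqp4 with the local background (-0.058). The AtrxdE2 value of Sox9 was -0.03 in the authors' deposited table.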

How the results depend on the processing

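The members' median moved with the normalization. In AtrxdE2 it was -0.084 and turned to 0.053 with median centring (lowest -0.16, in the authors' deposited table). In AtrxdE2+TMPyP4 it was 0.12, and between 0.12 and 0.38 over the settings, highest with median centring. For treated over untreated AtrxdE2 it was 0.11, 0.38 with median centring and 0.00053 with the Cy3 channels alone. The count of members past 2-fold in AtrxdE2+TMPyP4 over wild type was 1 in place of 0 with plain subtraction, with offset 0 and in the authors' deposited table (Glul each time, at -1.05, -1.04 and -1.01), and 1 with the local background (Clu, 5.68). For treated over untreated AtrxdE2 it was 1 in place of 0 with plain subtraction and in the authors' deposited table (Fgfr3, 1.18 and 1.16) and 1 with the local background (Clu, 5.77). Of the 27 values of single members, 10 moved by more than the local spread with median centring, 9 with the local background, 5 with plain subtraction, 5 in the authors' deposited table, 4 with offset 0 and 0 without the filter. With the Cy3 channels alone 4 of 9 did. Of the 27, 15 kept their sign in every setting and 12 did not. Over all 300 bases of the promoter table, 2 of 8 member promoters in place of 1 held the G-quadruplex motif, and 2 in place of 1 TTCNNNGAA. Dim probes limit Gfap and Fgfr3, and 1 array per group limits every value. No paired analysis was possible because each group has 1 array.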
